A study of Mus musculus with 2 samples.

Results

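MNase-seq of mouse ES (embryonic stem) cells gave 2 lists of called nucleosomes, and the narrow strong calls are their autosomal entries 80 to 90 bp wide with a score of 100 or more and below the maximum of 3250. They number 149218 of 1300009 calls in the ethanol library and 158129 of 1424844 in the tamoxifen library. They were chosen by the deposited width and score, so both are given below as a description with nothing resting on them, and the calls 100 to 120 bp wide in the same score range, 206341 and 225129, serve as the comparison. Both libraries came from Brg1fl/fl; Actin-CreER ES cells, in which both alleles of the gene of Brg1 are floxed and a tamoxifen-activated Cre recombinase is driven by an actin promoter. The cells grew on gelatin in serum-LIF medium and received 0.8 µM tamoxifen, or ethanol as the vehicle, for 24 hours, followed by 48 hours in medium without either. Of several digests of the nuclei, the one with 12 U of MNase was used, and its band of mononucleosome length was cut out and sequenced. Each group has 1 library, so no test was made, and every interval below is a 95% interval that covers counting error only and treats calls as independent. The extent of Brg1 loss cannot be read from these lists.

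Micrococcal nuclease cuts the linker DNA between nucleosomes and then trims inward, so the protected fragments pile up over the DNA wrapped on a histone octamer. A caller turns each pile into a region, whose width depends on the caller and need not equal the length of wrapped DNA. The narrow calls and the calls of 100 to 120 bp are both narrower than the DNA wrapped by a complete nucleosome core. Brg1 supplies the ATP-driven motor of esBAF, a chromatin remodelling complex of ES cells that slides and ejects nucleosomes. The series asks whether esBAF promotes regular spacing beside the binding sites of pluripotency factors.

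Narrow calls made up nearly 30% of the strong calls of each library. In the ethanol library they were 29.2% of the 511512 strong autosomal calls (Wilson interval 29.0 to 29.3%), and in the tamoxifen library 28.6% of 553707 (28.4 to 28.7%). Most were 90 bp wide, the commonest width among strong calls. The ethanol library held 116275 calls of 90 bp and 32943 of 80 bp, the narrowest width in the list, and the tamoxifen library 123918 and 34211. An 80 bp call was less often strong than a wider one: 23.1% of all 80 bp calls reached the score range with ethanol and 22.3% with tamoxifen, against 37.9 and 36.9% at 90 bp and 40.3 and 39.8% at 100 to 120 bp. Narrow strong calls covered 13.1 and 13.9 Mb.

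The tamoxifen library held 5.97% more narrow strong calls than the ethanol library, a smaller excess than among the wider calls. At 80 bp the excess was 3.85% and at 90 bp 6.57%, while at 100 to 120 bp it was 9.11% and over all autosomal calls 9.57%. The excess was also smaller than among 80 bp and 90 bp calls scored below 100, where it was 8.83 and 11.3%. The calls of 100 to 120 bp had the same order, with 9.11% in the score range and 11.5% below 100. The narrow share of strong calls was lower with tamoxifen on 17 of 19 autosomes, the exceptions being chromosomes 6 and 16. How far 2 cultures or digests of the same treatment would differ in this is unknown here.

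The score behaved like a probability of a read pile, which sets what the score limit means at each width. Of the autosomal calls below the maximum, 99.9% in each list carried a score within 0.15 of minus 10 times the log10 of an upper-tail Poisson probability of some whole count, with an expected count of 0.0689 per bp over the width plus 10 bp. The same rate fitted both lists, although the definition of the score is not given in the sources used here. Of the distinct pairs of width and score, 77.5% matched with ethanol and 76.4% with tamoxifen. Read this way, the limit of 100 asks for an implied count of at least 29 at 80 bp and 30 at 90 bp, but 35 at 120 bp. The median implied count of the ethanol calls was 34 at 80 bp, 36 at 90 bp and 42 at 120 bp. The corresponding tamoxifen medians were 33, 35 and 42. Since these counts are worked back from width and score, the smaller count of a narrower call at a like score follows from the formula and is no separate measurement.

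Within their range the narrow calls had a slightly lower median score than the wider calls. It was 141.3 with ethanol and 135.7 with tamoxifen, against 144.9 for the wider calls of both libraries, and 56.3 and 57.7% of narrow calls scored below 150. Scores move in steps that differ with width, and the difference of medians with ethanol is smaller than a step. By single width the order did not hold throughout. With ethanol the median was 143 at 90 bp and 140.2 at 110 bp, and with tamoxifen 135.7 and 140.2. The highest scores did not follow the medians, since narrow calls made up 34.0% of the strong ethanol calls and 30.2% of the strong tamoxifen calls that scored 1000 or more, above their share over the whole range. Scores of 500 or more were carried by 4102 of 149218 narrow ethanol calls and 4030 of 158129 narrow tamoxifen calls. Among the wider calls they were carried by 4819 of 206341 and 5204 of 225129, a slightly smaller share. Over all strong calls the counts were 12739 of 511512 and 13548 of 553707. The limit of 100 falls between 2 well filled steps of the score. In the ethanol list the step just outside it at 90 bp, a score of 95.1, held 14864 calls and the first step inside, 101.6, held 12761, while at 80 bp the steps of 98.8 and 105.6 held 5333 and 4470. Just outside the width limit stand 100892 strong ethanol calls of 100 bp, with a median score of 144.9.

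Narrow strong calls were found again in the other library more often than the wider calls of the same score range, when found again means a call centre within 20 bp. Of the narrow ethanol calls, 69.5% (69.3 to 69.7%) met a tamoxifen call at that distance or less, against 64.4% (64.2 to 64.6%) of the calls of 100 to 120 bp. Of the narrow tamoxifen calls, 67.2% (67.0 to 67.4%) had an ethanol call there, against 61.9% (61.7 to 62.1%). The background is 44.4% of all autosomal ethanol calls and 40.5% of all autosomal tamoxifen calls, or 59.0 and 56.9% of those in the score range. The narrow calls exceeded the wider ones by 5.08 percentage points (4.77 to 5.39) in the ethanol list and by 5.34 (5.03 to 5.64) in the tamoxifen list. The difference had the same sign on 19 of 19 autosomes in both lists. It was smallest on chromosomes 8 and 12, at 2.30 and 2.33 points with ethanol and 2.73 and 2.59 with tamoxifen. Its highest values were 7.18 points on chromosome 1 with ethanol and 7.83 on chromosome 9 with tamoxifen. Calls of the other list 1000 to 2000 bp away, counted over a stretch of the same length, amounted to 5.21 per 100 narrow and 4.93 per 100 wider ethanol calls, and to 4.81 and 4.53 with tamoxifen.

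Sharing was highest at 90 bp and lower on both sides of that width. In the ethanol list it was 67.5% at 80 bp, 70.1% at 90 bp, 67.6% at 100 bp and 58.9% at 120 bp. From there it went down with each wider class to 16.9% at 240 bp. In the tamoxifen list it was 66.3, 67.5, 65.0 and 57.0% at the same 4 widths. The 90 bp calls stood 2.53 points (1.96 to 3.10) above the 80 bp calls with ethanol and 1.10 points (0.54 to 1.67) with tamoxifen.

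**Figure D1:**
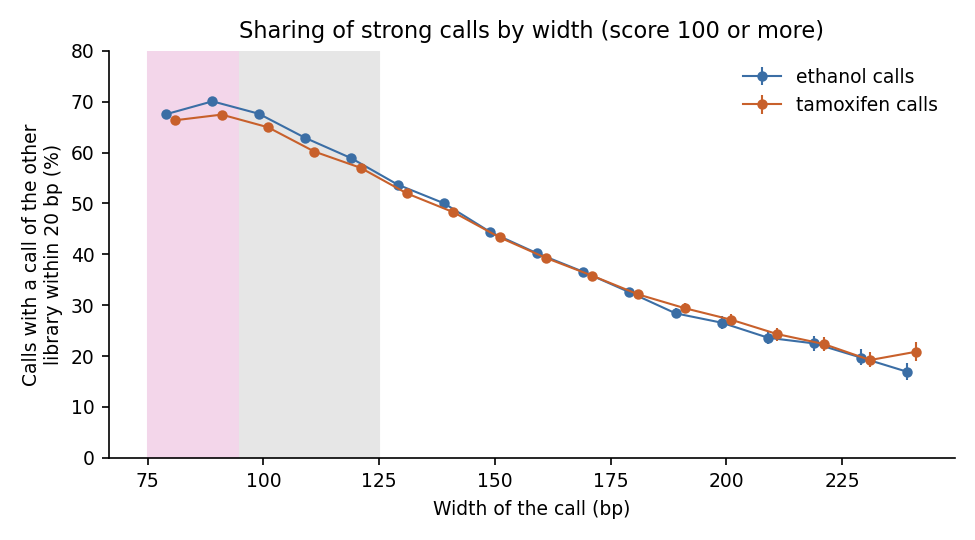
Share of strong calls (score 100 or more, below the maximum) with a call of the other library within 20 bp between centres (y axis, %) by width of the call in bp (x axis), for ethanol and tamoxifen calls; bars are 95% Wilson intervals, pink marks 80 to 90 bp and grey 100 to 120 bp. Both lines peak at 90 bp, at 70.1% with ethanol and 67.5% with tamoxifen, and go down toward the widest calls.

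For the 2 narrow widths together, the excess lay in how closely the centres coincided, not in how many calls had some counterpart. Within 10 bp, 54.4% of narrow and 44.2% of wider ethanol calls had a partner, and 52.7 and 42.6% of the tamoxifen calls. Within 40 bp the values drew together, at 79.5 and 79.2% with ethanol and 76.9 and 75.9% with tamoxifen. The 80 bp calls then stood below the wider calls, at 76.3% with ethanol and 74.9% with tamoxifen. The 90 bp calls stood above them, at 80.4 and 77.5%. Any overlap with a call of the other list was found for 85.2% of narrow and 85.7% of wider ethanol calls, so that the order turned there, and for 82.5 and 82.2% of tamoxifen calls. Calls at exactly the same start and end in both lists made up 13.2% of the narrow ethanol calls (13.0 to 13.3%) and 4.86% of the wider ones (4.77 to 4.95%). Taken by single width, the ethanol shares were 13.1% at 80 bp, 13.2% at 90 bp, 6.85% at 100 bp, 3.41% at 110 bp and 2.20% at 120 bp. The median distance to the nearest call of the other list was 10 bp for narrow and 15 bp for wider calls in both directions.

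**Figure D2:**
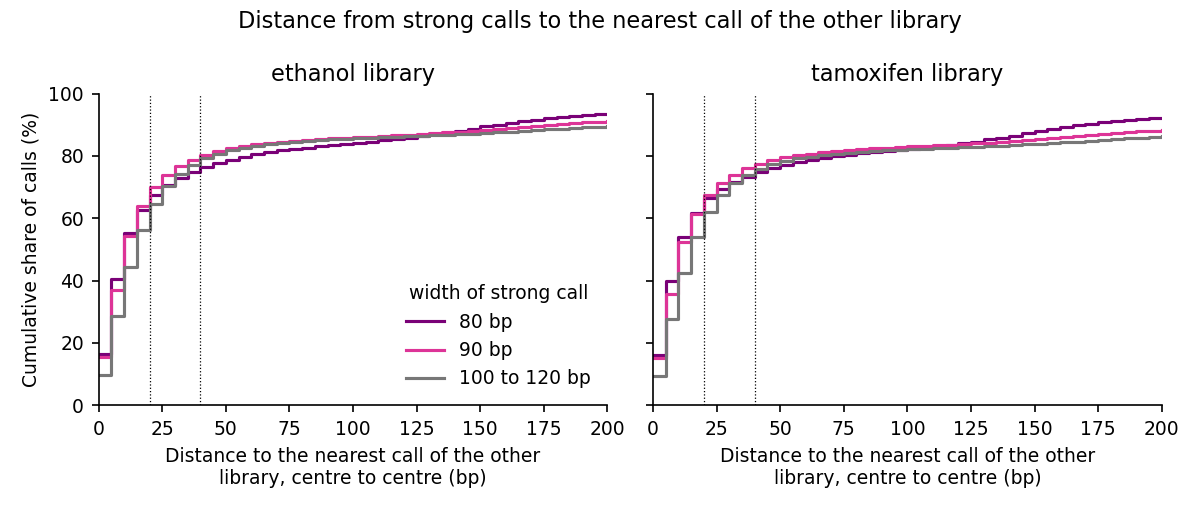
Cumulative share of strong calls (y axis, %) by distance from their centre to the nearest call centre of the other library (x axis, bp), for calls of 80 bp, 90 bp and 100 to 120 bp in the ethanol (left) and tamoxifen (right) library; dotted lines mark 20 and 40 bp. The narrow calls lie above the wider ones up to 20 bp. At 40 bp 79.5% of narrow and 79.2% of wider ethanol calls had a partner, with 76.3% at 80 bp and 80.4% at 90 bp.

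At like scores the order was the same except among the highest. In the ethanol list 57.6% of narrow calls scored 100 to below 120 were shared, against 52.6% of the wider calls. Between 200 and 300 the shares were 83.2 and 75.9%, a gap of 7.21 points (6.504 to 7.91). Between 500 and 1000 they were 92.3 and 89.4%. From 1000 upward, where 864 narrow and 855 wider ethanol calls stood, they were 90.3 and 92.5%, and the interval of the difference, -4.91 to 0.425 points, includes 0. In the tamoxifen list the gap was 5.83 points at scores of 100 to below 120, 7.06 at 120 to below 150 and 1.91 between 500 and 1000, and from 1000 upward it was -0.42 points (-3.00 to 2.09). Below the score range, at 90 to below 100, narrow calls were shared in 51.4% with ethanol and 48.4% with tamoxifen, also above the wider calls of those scores, at 47.5 and 42.9%.

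**Figure D3:**
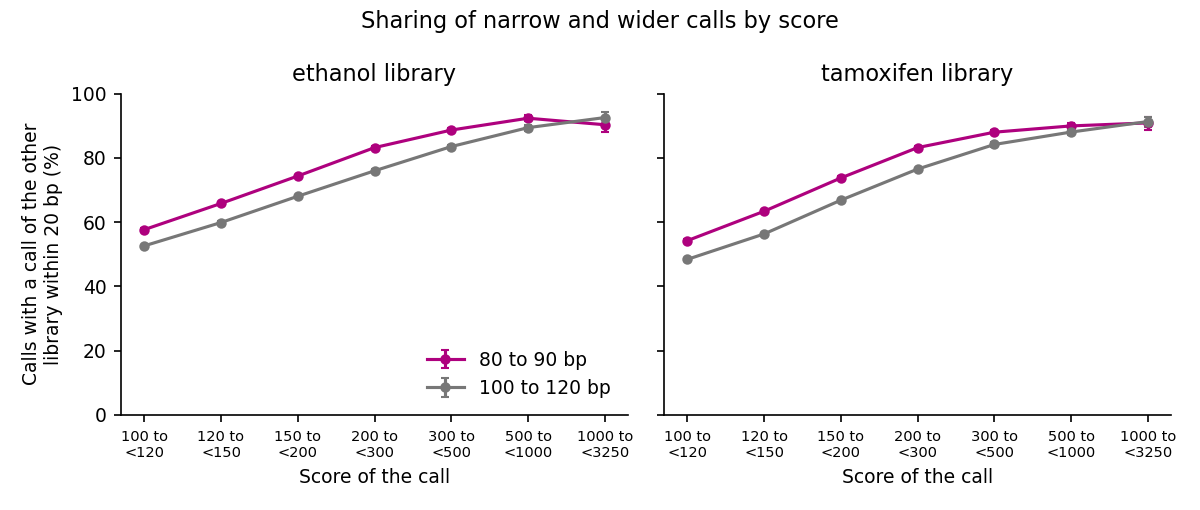
Share of calls with a call of the other library within 20 bp (y axis, %) by score class (x axis), for narrow calls of 80 to 90 bp and for calls of 100 to 120 bp, in the ethanol (left) and tamoxifen (right) library; bars are 95% Wilson intervals. Narrow calls lie above the wider ones up to a score of 1000 (83.2 against 75.9% between 200 and 300 with ethanol), and the intervals overlap from 1000 upward with ethanol and from 500 upward with tamoxifen.

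A narrow call tended to be narrow again in the other library. Of the 103710 shared narrow ethanol calls, 61.9% (61.6 to 62.2%) had a tamoxifen partner of 80 or 90 bp, while 30.8% (30.6 to 31.1%) of the shared wider calls did. Over all shared autosomal ethanol calls 38.2% had a narrow partner. In the other direction the shares were 62.0% for narrow calls and 31.1% for wider calls, with 38.4% over all. The likeness was stronger at 80 bp, where 76.1% of ethanol calls had a narrow partner, than at 90 bp, with 58.0%. Exactly the same width was met by 35.7% of shared 80 bp calls and 41.9% of shared 90 bp calls. A partner of more than 120 bp was rare for narrow calls, at 5.41% with ethanol and 5.23% with tamoxifen, against 17.4 and 17.0% for the wider calls.

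Many members nevertheless had no member as their partner in the other list. In all, 44916 narrow strong calls had a partner within 20 bp that was itself narrow and strong, which is 30.1% of the ethanol members and 28.4% of the tamoxifen members, while over all strong calls 14.6 and 13.5% had such a partner. The partner scored 100 or more in 72.3% of shared ethanol members and 70.1% of shared tamoxifen members, close to the 71.6 and 68.5% over all shared strong calls. Among ethanol members, 15082 had a tamoxifen member at the very same start and end, 11990 of them 90 bp wide and 3092 of 80 bp. Their median score of 188.6 in each list stood above the 141.3 of all ethanol members.

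Where a narrow call was not shared, the other library in many cases still had a call over part of the same place. Of 45508 unshared narrow ethanol calls, 51.6% (51.1 to 52.0%) overlapped a tamoxifen call, of median width 120 bp, fewer than the 59.9% of unshared calls of 100 to 120 bp. In the tamoxifen list the shares were 46.7 and 53.3%. Of the unshared narrow ethanol calls, 10.9% (10.6 to 11.2%) lay wholly inside a tamoxifen call. Unshared calls of 100 to 120 bp lay inside a tamoxifen call in 6.62% (6.44 to 6.80%), although a shorter call fits inside another more easily. In 2515 cases, 5.53% of the unshared narrow ethanol calls, the tamoxifen call was the largest overlap of at least 2 ethanol calls. Any overlap counted, and the median width of the tamoxifen call was then 170 bp. For the wider calls the share of such cases was 2.43%. The same held from the tamoxifen side, where 2741 unshared narrow calls, 5.29%, met an ethanol call that overlapped at least 2 tamoxifen calls. Such places hold at least 2 calls of 1 library that overlap the same call of the other, and they occur in both directions. Whether those calls lay wholly under it, or met a further call there, was not examined.

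Some unshared narrow calls had their nearest call of the other library at about the distance between neighbouring nucleosomes. Of unshared 80 bp ethanol calls, 18.6% (17.9 to 19.3%) had their nearest tamoxifen call 140 to 200 bp away, against 12.5% at 90 bp and 7.89% at 100 to 120 bp. From the tamoxifen side the values were 19.3, 11.7 and 8.00%. Within the ethanol list the commonest distance to the nearest call was 165 bp at 80 bp of width and 195 bp at 100 to 120 bp. The fixed limits of 140 to 200 bp thus take in unlike parts of these peaks, and other limits were not tried. No call within 100 bp was listed for 21486 narrow ethanol calls (14.4%) and 27070 narrow tamoxifen calls (17.1%), against 14.3 and 17.9% of the wider calls and 16.2 and 19.5% of all strong calls. A missing call means only that the pile did not pass the authors' cutoffs. Unshared narrow calls had lower scores than shared ones, with medians of 121.7 and 150.3 in the ethanol list.

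Narrow calls stood closer to their neighbours than wider calls did, and most of all the 80 bp calls. Over all calls of any width and score, the nearest centre lay at a median of 290 bp from a narrow call in both libraries, against 400 bp with ethanol and 395 bp with tamoxifen for calls of 100 to 120 bp. At 80 bp the medians were 205 and 200 bp in the ethanol and tamoxifen lists, and at 90 bp they were 325 and 330 bp. A neighbour within 230 bp was listed for 42.1% of narrow ethanol calls (41.8 to 42.3%) and for 28.2% (28.0 to 28.4%) of the wider ones, with 28.8% over all strong calls. The tamoxifen values were 42.3, 28.5 and 28.9%. At 80 bp it was 55.5% with ethanol and 56.5% with tamoxifen. The narrow share exceeded the wider share on 19 of 19 autosomes in both lists.

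Calls do not overlap, so width itself sets the shortest possible distance between centres, and the gap between edges removes that limit. Most of the difference remained with it. The median gap to the nearest call was 200 bp for narrow calls in both libraries, and 290 and 280 bp for the wider calls. At 80 bp the median gap was 110 bp in both libraries. A gap of at most 120 bp was found for 40.5% of narrow and 28.7% of wider ethanol calls, 11.8 points apart against 13.9 for the centres. The commonest gap was 80 bp at 80 bp of width and 90 bp at 90 to 120 bp of width, in both libraries. The peaks were thus alike across widths while the medians were not. After a running mean over 3 neighbouring distances, the commonest distance between centres went from 165 bp at 80 bp of width to 180 bp at 90 bp, and at 100 to 120 bp it came to 195 and 190 bp in the ethanol and tamoxifen lists.

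**Figure D4:**
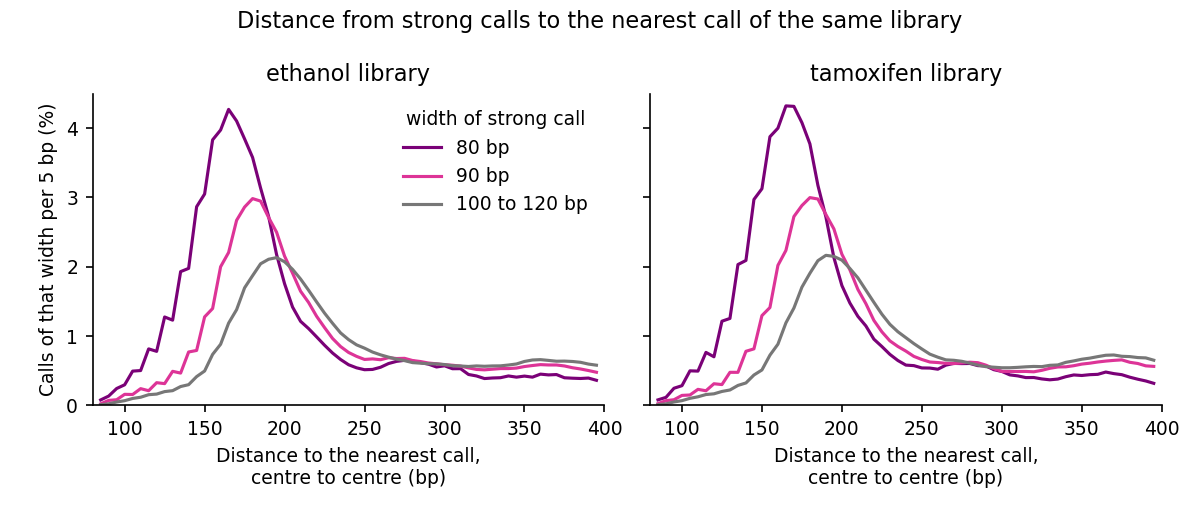
Share of strong calls (y axis, % per 5 bp, running mean over 15 bp) by distance from their centre to the nearest call centre of the same library (x axis, bp), for calls of 80 bp, 90 bp and 100 to 120 bp, in the ethanol (left) and tamoxifen (right) library. The peak lies at 165 bp for 80 bp calls, at 180 bp for 90 bp calls and at 190 to 195 bp for the wider calls, and it is highest for the 80 bp calls.

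Narrow calls were also more often enclosed from both sides. A call within 230 bp on each side was listed for 10172 narrow ethanol calls, 6.82% (6.69 to 6.95%), and for 2.98% (2.91 to 3.06%) of the wider calls. At 80 bp the share was 11.4% with ethanol and 11.9% with tamoxifen. The close neighbours of narrow calls were themselves strong in 56.9% of cases with ethanol and 55.8% with tamoxifen, against 47.5 and 46.6% beside wider calls. Their width differed little: 58.1% of close neighbours of narrow ethanol calls and 56.0% of those of wider calls were 80 or 90 bp wide. Isolated calls, with nothing listed within 1000 bp, were fewer among narrow calls, at 15.8% against 20.2% with ethanol and 15.1% against 18.8% with tamoxifen.

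Sharing between libraries differed with the neighbourhood of a narrow call, most of all where a neighbour was very close. Narrow ethanol calls with nothing within 1000 bp were shared in 72.7% (72.1 to 73.2%), those with a nearest neighbour beyond 230 and up to 1000 bp in 70.9%, and those with a neighbour within 230 bp in 67.0% (66.6 to 67.3%). Their median scores ran the other way, at 133.9, 135.7 and 143.0. In the tamoxifen list the shares were closer together, at 67.4, 68.3 and 66.0%, with the middle group highest. Where the neighbour's centre was under 140 bp away, closer than the centres of 2 complete nucleosomes can lie, sharing was far lower, at 37.5% (36.3 to 38.8%) of 5468 narrow ethanol calls and 37.4% (36.1 to 38.7%) of 5620 narrow tamoxifen calls. Wider calls with so close a neighbour were shared as seldom, in 36.9 and 37.1%. The group with a neighbour within 230 bp includes these very close cases, which lower its share. The rest of that group was not counted apart. Such neighbours were listed for 3.66% of narrow and 1.32% of wider ethanol calls, and for 7.25% of 80 bp calls.

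Peaks in the distances to all surrounding calls were sought after the same smoothing, each within 60 bp of a multiple of 190 bp, so that their rough spacing was set by the search. Around narrow ethanol calls they lay at 180, 370, 560, 750 and 940 bp, and around the wider calls at 195, 385, 590, 770 and 965 bp. With tamoxifen the peaks were at 180, 375, 570, 760 and 960 bp for narrow calls and at 195, 390, 580, 765 and 955 bp for the wider. A contrast was taken as the number of calls 350 to 410 bp away over the number 260 to 320 bp away, limits that come from earlier results of these data. It was 1.41 (1.39 to 1.44) around narrow and 1.52 (1.497 to 1.547) around wider ethanol calls, and 1.68 (1.66 to 1.72) and 1.74 (1.71 to 1.77) with tamoxifen. Over all strong calls it was 1.37 and 1.54, below the values around narrow calls of both widths together. Around 80 bp calls alone it was 1.34 (1.29 to 1.39) with ethanol and 1.53 (1.48 to 1.58) with tamoxifen. These stood slightly below the values over all strong calls, which lie inside the intervals. At 90 bp it was 1.44 (1.41 to 1.47) and 1.74 (1.70 to 1.78). With limits of 340 to 430 over 240 to 330 bp the order of narrow and wider calls turned in the tamoxifen list, so the order depends on the limits chosen.

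The next strong call was narrow slightly more often after a narrow strong call than after a wider one. Among strong calls in order along a chromosome, the next one after a narrow ethanol call was narrow in 31.9% (31.6 to 32.1%), after a wider call in 28.6% (28.4 to 28.7%), and over all strong calls in 29.2%. The tamoxifen values were 31.5, 27.9 and 28.6%. The difference between narrow and wider calls was 3.31 points (3.00 to 3.62) with ethanol and 3.58 (3.28 to 3.87) with tamoxifen, and it was above 0 on 19 of 19 autosomes in both lists. The difference was larger at short range. Where the next strong call lay within 1000 bp it was narrow in 38.6% after narrow and 32.5% after wider ethanol calls, and beyond 1000 bp in 27.2 and 26.5%. Runs of 3 or more narrow strong calls with no other strong call between them held 24.3% of the ethanol and 23.9% of the tamoxifen members, while 46.8 and 47.4% stood alone. The longest run had 14 calls with ethanol and 19 with tamoxifen. Runs were not counted for the wider calls or for a random order, so these shares and lengths have no comparison here. With 29.2 and 28.6% of next calls narrow over all strong calls, some runs would form in any order.

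In place, narrow calls followed the density of calls. Strong calls were divided into 10 classes by the number of calls within 5 kb on either side. In the 3 sparsest classes the narrow share was 26.2 to 26.5% with ethanol and 25.9 to 26.2% with tamoxifen. From there it was higher in each denser class and reached 35.9% (35.5 to 36.3%) with ethanol and 35.2% (34.8 to 35.6%) with tamoxifen in the densest, where a call had a median of 22 and 23 others within 5 kb. Sharing of narrow ethanol calls was lower in the densest class than in the sparsest, 67.7 against 73.5%, while in the tamoxifen list it was 66.2 and 67.4%. The excess of narrow over wider calls was small in the densest class, where 64.5% of wider ethanol and 63.5% of wider tamoxifen calls were shared. In the sparsest class the wider calls were shared in 65.8% with ethanol and 60.3% with tamoxifen.

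Chromosome 8, rich in calls of all kinds, had the highest narrow share of the 19 autosomes, 31.5% (31.1 to 31.9%) with ethanol and 30.9% (30.5 to 31.2%) with tamoxifen. The lowest was 26.7% on chromosome 13 with ethanol and 26.6% on chromosome 18 with tamoxifen. Chromosome 12, the other one rich in calls, stood at 29.8 and 29.2%, where the highest of the other 17 autosomes had 29.8 and 29.1%. Narrow strong ethanol calls per Mb came to 143 (chromosome 8) and 117 (chromosome 12), and to between 35.9 and 74.1 on each of the others. Each chromosome was also divided into 10 equal stretches between its first and last listed call. The narrow share was 27.5 to 29.6% in the first 9 stretches and 30.7% (30.4 to 31.0%) in the last with ethanol. With tamoxifen the last stretch also had the highest share, 30.1%. Strong calls there had a median of 12 others within 5 kb in both libraries, the highest of the 10 stretches.

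**Figure D5:**
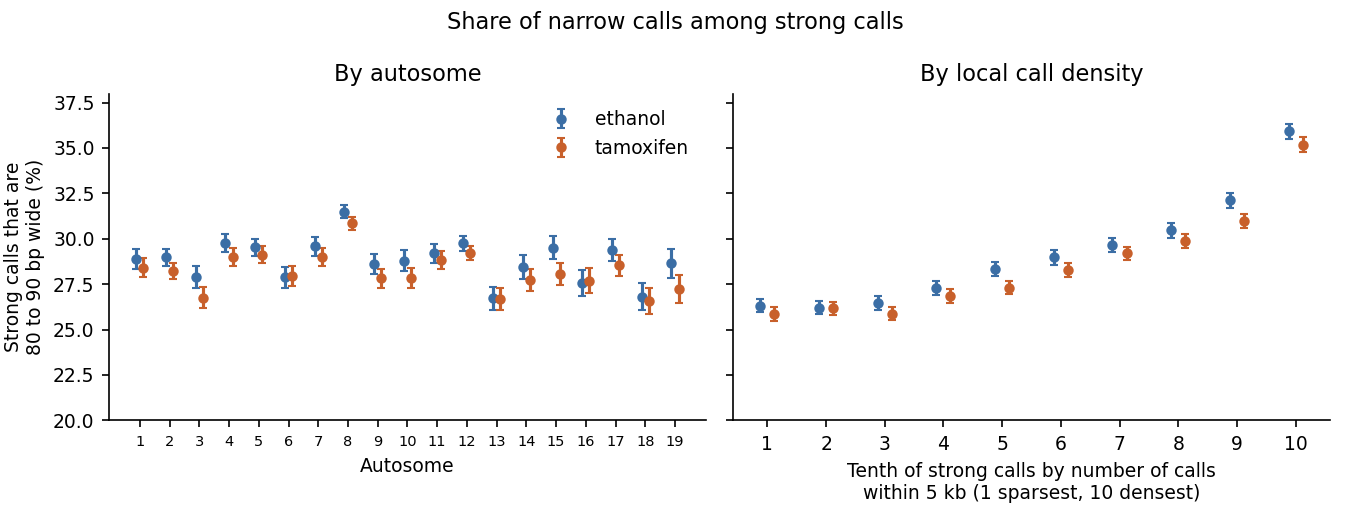
Share of strong calls that were 80 to 90 bp wide (y axis, %, starting at 20) by autosome (left) and by class of local call density (right, 10 classes of strong calls, 1 the sparsest and 10 the densest), for the ethanol and tamoxifen library; bars are 95% Wilson intervals. Chromosome 8 stands highest at 31.5% with ethanol, and the share goes from 26.3% in the sparsest to 35.9% in the densest class with ethanol.

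The windows of 10 kb with most narrow strong calls lay in a few very dense places, given here on mm9 as the files hold the positions. In the ethanol list 3 windows had 22 each. They were chromosome 7 from 67010001 to 67020000, with 31 strong calls in all, chromosome 10 from 58750001 to 58760000, with 33, and chromosome 17 from 3010001 to 3020000, with 39. The tamoxifen list had 16, 19 and 22 narrow strong calls in these windows. In the tamoxifen list chromosome 7 from 67030001 to 67040000 and chromosome 8 from 19980001 to 19990000 had 24 each, where the ethanol list had 21 in both. Chromosome 7 from 71220001 to 71230000 followed with 22, tied with 1 more window, against 13 with ethanol. Each window was picked as a maximum of its own list, so a lower count in the other list can follow from that choice. In the first of the ethanol windows narrow strong calls scored up to 2859.5, and 15 of the 22 were shared within 20 bp. Of the 7 strong calls of 100 to 120 bp in that window, 6 were shared. Over all narrow ethanol calls 69.5% were shared.

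The narrow calls with the highest scores among those at identical positions in both lists included 2 from the same surroundings. Chromosome 7 from 67012291 to 67012381 scored 2859.5 with ethanol and 3190.9 with tamoxifen and lies in the first of the dense windows. Chromosome 8 from 19959431 to 19959521 scored 2658.1 and 3079.6. The highest sum belonged to chromosome 1 from 85023021 to 85023111, with 3159.1 and 2937.7. All 3 were 90 bp wide, and in the ethanol list they had 17 to 34 other calls within 5 kb. Narrow strong calls were found within 1 kb of a call at the maximum score more often than wider calls, in 0.248% (0.224 to 0.275%) against 0.112% (0.0989 to 0.128%) with ethanol, and 0.580% of the 80 bp calls were. At the maximum itself, outside the rule, 258 of 645 autosomal calls were 80 or 90 bp wide with ethanol and 274 of 689 with tamoxifen. Over all autosomal calls, 449504 of 1289694 with ethanol and 489726 of 1413182 with tamoxifen had those widths.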

How the data were processed

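For either library the authors deposited the positions of called nucleosomes, each with a score. Bowtie 0.12.9 and the mouse build mm9 are named, per the submitters' processing notes. The definition of the deposited score is not given in the sources used here, nor are the caller and its cutoffs, and sequencing depth is unknown. Positions are spaced in steps of 10 bp and calls do not overlap, so movements smaller than that step are invisible, and a library read more deeply could list more calls. The score was used to filter, rank and describe calls within a list, and implied counts are a reading of its values.

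Sample titles gave the groups. The centre of a call is the midpoint of start and end, and its partner is the nearest centre of the other list. Shares have Wilson intervals, differences of shares Newcombe intervals, and contrasts Poisson intervals on a log scale. Calls of 1 library and neighbouring calls are not independent, so these intervals are too narrow. The members, limits and rules were chosen with earlier results of these data known. Named places are, per list, the 3 windows of 10 kb with most members, ties in chromosome order, and the 3 members at identical positions with the highest sum of scores. No annotation of mm9 was used, so neither gene nor sequence is given for them. The procedures were tested on simulated data. Alternatives were other distance limits, widths and score minimum, autosomes without 8 and 12, and wider calls weighted to the narrow calls by score, local density, implied count or nearest distance. Figures were drawn with matplotlib 3.10.9, and values were computed in Python 3.11.15 with scipy 1.17.1, pandas 2.3.3 and numpy 2.4.6.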

Additional observations from a re-analysis of the deposited data

How the results depend on the processing

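Overlap measures, weighting by implied count and by nearest distance, single widths for close neighbours and the higher score minimum by chromosome are alternatives added after seeing the data. Calls under another width, limit or minimum differ by construction, and no other cause was tested. No paired analysis was possible because ethanol and tamoxifen have 1 library each. Values are given for the ethanol and then the tamoxifen list. The narrow share was 6.44 and 6.18% for 80 bp alone, 22.7 and 22.4% for 90 bp alone, 27.2 and 26.2% from a score of 150, and 28.8 and 28.1% without chromosomes 8 and 12. The excess in sharing, 5.08 and 5.34 points, was 10.2 and 10.1 within 10 bp, 0.330 and 1.02 within 40 bp, 3.11 and 4.47 for 80 bp alone, 5.64 for 90 bp alone with ethanol, 1.88 and 2.25 against 100 bp alone, 10.6 and 10.2 against 120 bp alone, 6.27 and 6.16 from a score of 150, and 5.82 and 6.06 without chromosomes 8 and 12. With the wider calls weighted it was 5.50 and 6.00 by score, 6.51 and 7.25 by implied count and 5.74 and 5.79 by nearest distance. It was 0.291 and 0.999 for an overlap of at least 50% of the width and -0.513 and 0.298 for any overlap, so that the excess seen for close centres was near 0 for overlap. The excess of narrow partners, 31.0 and 30.9 points, was 37.1 and 36.9 within 10 bp, 26.5 and 26.5 within 40 bp, and 34.7 and 34.2 from a score of 150. The excess of narrow calls after a narrow call, 3.31 and 3.58 points, was 6.10 and 7.003 within 1000 bp, and 4.18 with ethanol from a score of 150. The excess of close neighbours, 13.9 points in each list, was 15.5 and 15.5 within 200 bp, 11.1 and 10.5 within 400 bp, 11.8 and 11.8 by edge gap, 12.4 and 12.4 weighted by density, 27.3 and 28.1 for 80 bp alone, and 10.1 and 9.98 for 90 bp alone, or 8.14 and 8.11 by edge gap. The contrast of pairs, narrow minus wider, was -0.111 and -0.0533; it was -0.0243 and 0.0376 with the other limits, and -0.148 with ethanol without chromosomes 8 and 12. The range of the narrow share over autosomes, 4.78 and 4.29 points, was 3.76 and 2.70 from a score of 150.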
